A study of Mus musculus with 20 samples.

Results

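Histone cluster genes encode the histones that package newly replicated DNA, and the table held 67 of them among its 54986 genes. They were the protein-coding rows whose symbol starts with Hist1h, Hist2h, Hist3h or Hist4h, and 65 of them passed the filter on low values described below. By family they were 6 genes of linker histone H1, 18 of H2A, 18 of H2B, 12 of H3 and 13 of H4. In the coordinates of the table (GRCm38) 54 lay in Hist1 on chromosome 13 (chr13:21715763-23934852), 10 in Hist2 on chromosome 3 (chr3:96219865-96270133), 2 in Hist3 on chromosome 11 (chr11:58948920-58956831) and 1, Hist4h4, on chromosome 6 (chr6:136801553-136804416). The 2 pseudogenes of these clusters in the table, Hist1h2aj and Hist3h2bb-ps, were not counted.

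RNA was sequenced from NMuMG cells, an epithelial line from a normal mouse mammary gland, and from lines made from them, with 2 libraries for each of 10 groups. NMuMG cells were untreated or treated with TGFβ (NMuMG+TGFβ), E1KD cells were silenced for hnRNP E1 (the gene Pcbp1) with an shRNA, and the M1P and L1P lines came out of NOD/SCID mice injected with E1KD cells, M1P from the primary tumor and L1P from the lung metastases, so M1P and L1P also carry that shRNA. NMuMG cells with an empty vector, NMuMG clones 12 and 16 with overexpressed Platr18, a long noncoding RNA, and E1KD cells that further carried an shRNA, scrambled (E1KD SCR) or against Platr18 (E1KD Platr18KD), made up the other 5 groups. Each of the Platr18 lines is a single clone. The labels do not say whether the 2 libraries of a group came from separate cultures, so the p-values measure the spread between these libraries only.

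Most histone mRNAs are made while DNA is replicated, in S phase, and differ from other mRNAs in having no poly(A) tail. Their 3′ end is a short stem-loop that is bound by the protein SLBP and left by a cut made with the U7 small nuclear RNP. Some of these genes can also be read past the stem-loop to a poly(A) signal, which gives a polyadenylated mRNA, and that form is known from cells that have left the cell cycle.

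The stem-loop and the poly(A) signal are shown for the genes on which the results turn and for 2 genes whose mRNA was near 0 in the first 5 groups. The sequences were read from the GENCODE M21 transcripts (GRCm38), and the capitals mark the stem-loop, a run of GGNNCT, the loop TTTN and AGNNCC, with 5 bases on each side. Hist1h1c has it at chr13:23739507-23739532 (plus strand), Hist3h2a at chr11:58955167-58955192 (plus), Hist1h4i at chr13:22040961-22040986 (minus), Hist1h2ab at chr13:23751567-23751592 (plus) and Hist1h4d at chr13:23581945-23581970 (plus).
Hist1h1c: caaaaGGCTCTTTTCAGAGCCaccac
Hist3h2a: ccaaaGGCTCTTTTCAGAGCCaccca
Hist1h4i: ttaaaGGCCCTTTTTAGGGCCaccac
Hist1h2ab: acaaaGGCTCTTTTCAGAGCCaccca
Hist1h4d: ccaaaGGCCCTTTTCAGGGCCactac

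The stem-loop letters alone do not tell these genes apart, since Hist1h1c, Hist3h2a and Hist1h2ab share the form found in 26 members. The last 30 bases of 2 annotated transcripts are shown for the poly(A) signal AATAAA, in capitals. They are from Hist1h1c, at chr13:23740338-23740367 (plus strand), and from Hist2h2be, at chr3:96223709-96223738 (plus), in whose transcript the stem-loop letters were not found.
Hist1h1c: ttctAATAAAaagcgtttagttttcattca
Hist2h2be: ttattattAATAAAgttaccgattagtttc

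Across the annotation, these stem-loop letters were found in 44 of the 67 members and in 78 of the 21610 protein-coding genes (0.361%). With the stem fixed to GGCTCT and AGAGCC they were found in 33 members and in 35 protein-coding genes (0.162%). AATAAA stood in the last 40 bases of a transcript of 15 members (22.4%), against 68.2% of the protein-coding genes. A match describes the letters only, and no match says only that these letters are not in the annotated transcript.

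The 20 libraries were of 2 kinds, told apart by RNAs that carry no poly(A) tail (Rn7sk, Rmrp, Rpph1, Terc, Rny1 and Rny3). Their summed level was 0.716 to 20.9 CPM (counts per 1e6 reads) in the 10 libraries of NMuMG, NMuMG+TGFβ, E1KD, M1P and L1P, the first kind, and 10374 to 14151 CPM in the 10 libraries of the other 5 groups, the second kind. The labels describe the preparation of both in the same words. The kind goes with the vectors and the selection that the lines carry, so these cannot be told apart in a comparison between kinds. The reads to which the values were scaled, in units of 1e6, were 50.8 to 60.03 in the first kind and 63.0 to 147 in the second. At these depths 3 reads are worth 0.04998 to 0.0591 CPM and 0.0204 to 0.0477 CPM. Of the NMuMG markers, Cdh1, Krt8 and Krt18 were present in every library, while the epithelial marker Epcam had at most 0.0167 CPM. Of 9 markers of other cell types only Cd68 passed the filter (1.06 to 3.39 CPM), Sftpc and Hbb-bs were at 0, and the list summed to 1.15 to 3.19 CPM in the first kind and 1.49 to 3.62 CPM in the second. Pcbp1 had 287 and 312 CPM in NMuMG and 16.6 and 14.21 CPM in E1KD, and 32.29 and 32.31 CPM in empty vector cells and 3.28 and 3.46 CPM in E1KD SCR. Platr18, listed as Lncenc1, had 3.68 and 3.06 CPM with the empty vector, 3092 and 3096 CPM in clone 12 and 813 and 819.8 CPM in clone 16. It had 1.24 and 1.45 CPM in NMuMG and 17.9 and 14.6 CPM in E1KD, but 2.92 and 3.10 CPM in E1KD SCR. In E1KD replicate 1 the values were higher over all genes, by a median log2 of 0.33 against replicate 2, and the table's sum was 0.729 of the scaled reads, against at most 0.581 in the other libraries of the first kind.

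Histone cluster mRNA was abundant in the second kind and low in the first, where 55 of the 67 members had a mean under 1 CPM. Summed over the 67 members, it was 58.0 to 136 CPM in the first kind and 3319 to 6206 CPM in the second. The comparison between kinds was made in the lines that match most closely, although none is in both kinds. It set the means of empty vector and E1KD SCR against the means of NMuMG and E1KD, and gave a fold of 48.6 for the sum. By family the fold was 137 for H3, 116 for H4, 43.1 for H2B, 38.2 for H1 and 23 for H2A. On the log2(CPM + 1) scale, a gene was tested if 2 or more of the 20 libraries reached 1 CPM. It was called if its unadjusted p in limma was under 0.001 and its log2 fold change was 1 or more in size. By this rule 64 of the 65 members tested were called higher in the second kind, against 18.3% of the 17106 genes tested. Of the 65, 51 passed the filter only through the libraries of the second kind and had to differ, so the count is a description.

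Among the 63 members with enough reads in the first kind to give a ratio, the second kind was higher by a median of 152-fold, and 59 of them by more than 10-fold. The highest ratio was 1814 for Hist2h2bb, an H2B gene, which rests on 42.1 reads in the 4 libraries of the first kind. All of its 50-base words recur in another annotated gene, Gm20628, so reads of the pair could not be told apart. Next was Hist1h1a, an H1 gene with none of its words shared, at 1048. At the other end stood Hist2h2be, an H2B gene whose ratio was 0.949 (log2 fold change 0.15, standard error or SE 0.057, adjusted p = 0.021), and it was the member not called. The ratio of means and the log2 difference differ in sign, since the high NMuMG values weigh more in a mean of CPM. Its 4 libraries of the first kind, from 5.78 to 27.7 CPM, and its 4 of the second, from 10.04 to 21.6 CPM, overlapped.

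**Figure D1:**
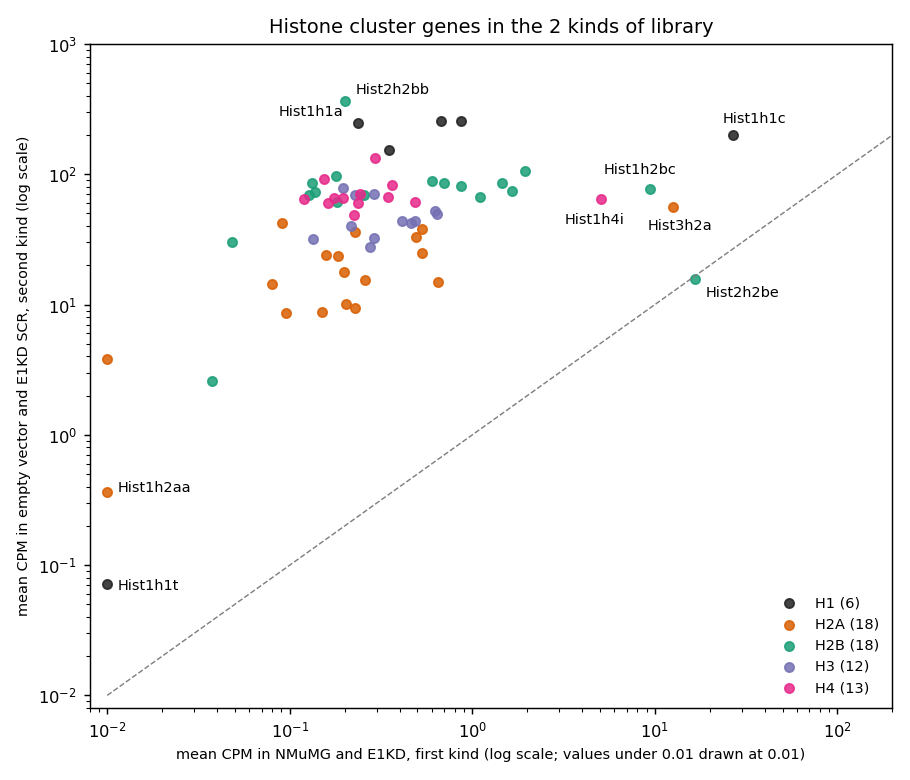
Mean CPM of each of the 67 histone cluster genes in NMuMG and E1KD (first kind, x axis) against empty vector and E1KD SCR (second kind, y axis), on log scales, with 1 point per gene coloured by family. The dashed line marks equal levels: Hist2h2be lies on it, Hist3h2a, Hist1h2bc and Hist1h1c lie nearest above it, and the bulk of the genes lies far above it at under 1 CPM in the first kind.

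The RNAs without a poly(A) tail were higher in the second kind by choice, since the kinds were told apart by them. That all 7 of their rows (Rmrp has 2) were called higher there, with a median log2 fold change of 7.999, is a description only. The genes listed as replication-independent histones, whose mRNAs can have a poly(A) tail, were not higher there as a set. Of 11 tested, H2afz, the H2A.Z gene, was called higher, and H1fx and H2afj were called lower. The ratios of the 11 ran from 0.0042 (H1fx) to 2.18 (H2afz). H1f0, the linker histone of cells that divide little, had a ratio of 0.625. Of 16 genes for the synthesis and 3′ end processing of histone mRNA, Cpsf3, the endonuclease subunit, was called higher. Of 16 histone chaperones, Hat1 and Supt16 were, and of 24 S phase genes 8 were called higher and 1, Gins2, lower.

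Within the second kind the families kept close shares of the members' sum in the 5 groups. H2B held 32.6% to 34.3%, H1 23.7% to 24.4%, H4 20.4% to 21.5%, H3 12.3% to 13.4% and H2A 8.15% to 9.09%. In the first kind the shares were wide, from 22.7% to 43.2% for H1 and from 15.6% to 41.2% for H2A, as a few genes made up most of the sum.

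The members with the highest mean CPM in the second kind were, in H1, Hist1h1e at 252, Hist1h1d at 244 and Hist1h1a at 216. In H2B they were Hist2h2bb at 337, Hist1h2be at 103 and Hist1h2bb at 93.1. In H2A they were Hist3h2a at 57.2, Hist2h2ac at 40.96 and Hist2h2aa1 at 37.1. In H3 they were Hist1h3f at 77.3, Hist1h3e at 68.7 and Hist1h3b at 65.9, and in H4 Hist1h4d at 134, Hist4h4 at 85.1 and Hist1h4h at 80.4. Per kb of annotated exon, the mean level in the second kind was highest for Hist2h2bb at 886 CPM per kb, Hist1h1a at 292 and Hist1h2bl at 203. This order depends on how far the annotation runs. Hist2h2bb has 381 annotated bases, whereas Hist1h1d, at 32.8 CPM per kb, has 7425, of which 4884 lie after the stem-loop letters. The lowest were 2 genes of the male germline. Hist1h1t, the testis linker histone, had 0.0136 to 0.130 CPM in the second kind, and Hist1h2aa, the testis H2A, had 0.194 to 0.445 CPM there and 0 in the libraries of the first kind. Neither passed the filter, and the 0 allows up to 3 reads in a library. Such low levels did not hold for all testis histones, as Hist1h2ba, the testis H2B, had 21.2 to 41.5 CPM in the second kind. Of its 50-base words 38.2% recur in another gene.

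A set of 12 members stayed visible in the first kind, taken as a mean of at least 1 CPM over its 10 libraries. Hist1h1c, the linker histone H1.2, led with a mean of 33.6 CPM, followed by Hist3h2a with 19.2, Hist2h2be with 10.9, Hist1h2bc with 10.4 and Hist1h4i with 4.01 CPM. The 7 others ranged from 1.73 CPM for Hist1h2be to 1.04 for Hist2h3c2, with Hist1h2bq, Hist1h2bg, Hist1h2br, Hist1h1d and Hist2h2aa1 between them. Just outside the limit was Hist2h2aa2 with 0.970 CPM. With a limit of 0.5 CPM 18 members were visible and with a limit of 2 CPM 5 were. Per kb, Hist1h1c had a mean of 21.5 CPM in the first kind, Hist1h2bc 8.99, Hist3h2a 8.96, Hist1h4i 5.51 and Hist2h2be 4.16.

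The annotated transcripts of the visible members were longer. Their longest transcripts had a median of 1255 bases, against 508 bases for the 55 other members. The split was made on CPM without a correction for length, so length was not independent of it. Per kb in the first kind, Hist1h2bl, not visible, had 2.08 CPM, against 0.148 for Hist1h1d, which was visible. AATAAA stood near the end of a protein-coding transcript in 5 of the 12, against 9 of the 55. The stem-loop letters were in 8 of the 12 and in 36 of the 55, and in those the annotation ran on past the letters for a median of 608.5 and 48.5 bases. In the genes printed above it ran on for 840 bases in Hist1h1c, 1643 in Hist3h2a and 330 in Hist1h4i, against 11 in Hist1h2ab. More than 100 bases followed the letters in 7 of these 8 visible members and in 15 of the 36 others. Among those 15 were Hist1h4d with 770 bases and Hist4h4 with 2445 bases, at means of 0.199 and 0.133 CPM in the first kind.

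**Figure D2:**
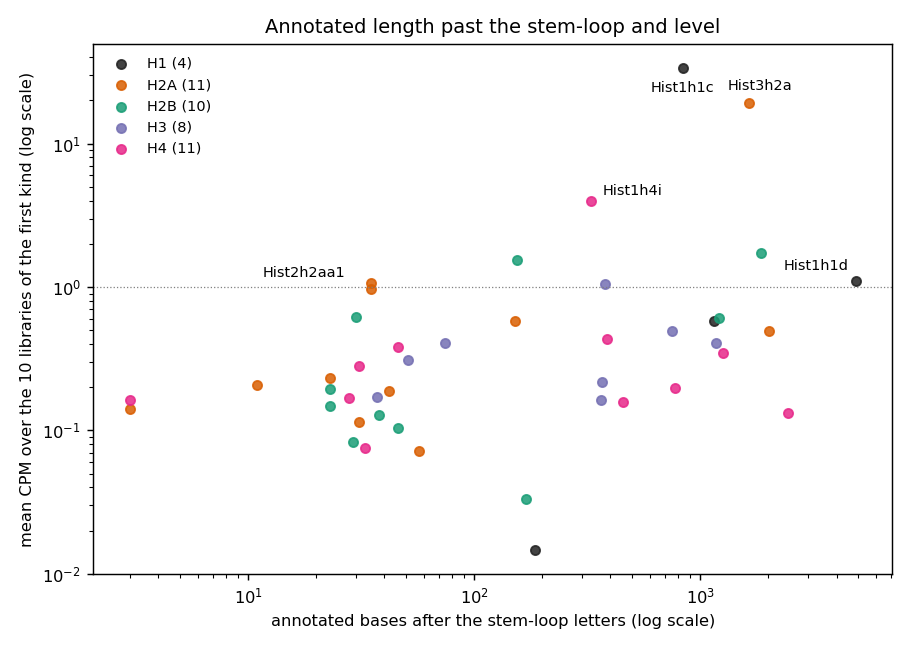
Annotated bases after the stem-loop letters (x axis, log scale) against the mean CPM over the 10 libraries of the first kind (y axis, log scale) for the 44 members with these letters, coloured by family. The dotted line marks 1 CPM: above it are 8 genes, 7 of them with more than 100 bases after the letters, and 15 genes with more than 100 bases lie below it.

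Several visible members share sequence with other genes, and their reads could be split between copies. The share of 50-base words that recur in another gene was 0% for Hist2h2be, 8.54% for Hist1h1c, 28.9% for Hist1h4i and 30.6% for Hist1h2bc, and 97.3% for Hist1h2bq, whose copy is Hist1h2br. Hist3h2a shares 31.5% with Trim17, which overlaps it on the same strand and had 2.03 to 3.68 CPM in the first kind. All words of Hist2h2aa1 recur in other annotated genes. For these, the family sum is the firmer value.

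The promoters of the members, 250 bases before to 50 after the start in RefSeq (GRCm38.p6), were matched for 61 of the 67. The octamer ATTTGCAT, searched on both strands, was in 7 of 17 H2A and 7 of 17 H2B promoters and in 0 of those of H1 (6), H3 (10) and H4 (12), against 1.74% of all promoters. CCAAT, searched likewise, was in 85.5% of the members' promoters and in 37.4% of all, and was least common in H4 (3 of 12). TATAAA was in 56.5% and 13.6%. No entry matched Hist2h2be.

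Silencing of hnRNP E1 in the first kind, E1KD versus NMuMG, asks what an epithelial-mesenchymal transition induced in this way does to the transcriptome. Hist2h2be and Hist1h1c fell. Hist2h2be had 27.7 and 26.1 CPM in NMuMG and 6.75 and 5.78 CPM in E1KD (log2 fold change -1.94, SE 0.081, adjusted p = 6.7e-11, limma with Benjamini-Hochberg adjustment). Hist1h1c had 40.4 and 41.4 CPM in NMuMG and 13.03 and 12.6 CPM in E1KD (log2 fold change -1.60, SE 0.12, adjusted p = 7.0e-08). In both genes the E1KD libraries lay far under the NMuMG libraries. These 2 of 65 members were the ones called lower, against 2.99% of all genes, and 0 were called higher, against 6.44%. Over all genes, 68.3% of the calls were higher in E1KD. This share was 53.0% with median-of-ratios scaling and 49.4% with equal sums over protein-coding genes, and the median of all genes was 0.17 as scaled and 0.02 and 0.01 with these. Without E1KD replicate 2 the genes called higher were 15.3% of those tested and 85.2% of the calls, and without E1KD replicate 1 they were 4.33% and 52.5%. The members called were 2 lower and 0 higher in both.

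Hist1h2bc, an H2B gene, had 12.8 and 12.2 CPM in NMuMG and 6.40 and 6.38 CPM in E1KD. Its log2 fold change of -0.87 (adjusted p = 0.00017) passed the fold limit with the other scalings (-1.04 and -1.09) and not as scaled here. Hist3h2a had 15.9 and 16.1 CPM in NMuMG and 8.66 and 9.32 CPM in E1KD (log2 fold change -0.77, adjusted p = 0.00041). The visible H4 gene Hist1h4i lay the other way, with 3.38 and 3.71 CPM in NMuMG and 7.09 and 6.02 CPM in E1KD (log2 fold change 0.73, adjusted p = 0.015). The median over the 65 members was 0.09. The members that were not visible summed to 11.8 and 13.6 CPM in NMuMG and to 20.996 and 13.2 CPM in E1KD, so their levels overlapped, and the high value was that of E1KD replicate 1. In that library the tail-free RNAs were higher as well, with 8.996 CPM of Rn7sk against 2.22 CPM in replicate 2. Whether the 2 share a source was not tested.

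The S phase genes gave 4 calls of 24, all higher in E1KD: Ccne1 and Ccne2 (cyclins E), Rrm2 (ribonucleotide reductase) and Mcm5 (replicative helicase). Ccne1 had 5.08 and 5.6 CPM in NMuMG and 19.8 and 13.3 CPM in E1KD. H1fx was listed at 0 in both NMuMG libraries and had 5.52 and 4.71 CPM in E1KD, and it was the one replication-independent histone called. In the processing genes and in the chaperones 0 of 16 were called. The mesenchymal markers Fn1, Vim and Cdh2 were called higher in E1KD, and Fn1 and Cdh2 after TGFβ.

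TGFβ, NMuMG+TGFβ versus NMuMG, is the other way in which the study induced the transition. Hist2h2be fell and Hist3h2a rose. Hist2h2be had 8.68 and 9.45 CPM after TGFβ from the NMuMG values above (log2 fold change -1.47, SE 0.081, adjusted p = 1.1e-09). Hist3h2a had 47.4 and 48.7 CPM after TGFβ (log2 fold change 1.53, SE 0.14, adjusted p = 4.2e-07), and with these the highest level of any group of the first kind. Hist1h1c, at 43.4 and 41.8 CPM, gave a log2 fold change of 0.06 (adjusted p = 0.76), and -0.012 with equal sums over protein-coding genes. Thus 1 of 65 members was called higher, against 5.85% of all genes, and 1 lower, against 7.66%. Over all genes 43.3% of the calls were higher, and 53.6% with median-of-ratios scaling.

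Of the 10 genes of the Hist2 cluster, 3 had both treated libraries above both NMuMG libraries, against 30.6% of all genes. Besides Hist2h2be, Hist2h2bb had both below, at no more than 0.172 CPM in either group, and the other 5 overlapped. Hist2h2aa1, an H2A gene, had 0.511 and 0.849 CPM in NMuMG and 3.11 and 3.02 CPM after TGFβ (log2 fold change 1.28, adjusted p = 0.0030). Hist2h3c2, an H3 gene, had 0.779 and 0.717 CPM in NMuMG and 2.05 and 2.32 CPM after TGFβ (log2 fold change 0.86, adjusted p = 0.0043). Hist2h2aa2, also an H2A gene, had 0.530 and 0.905 CPM in NMuMG and 2.52 and 2.69 CPM after TGFβ. None of these was called, since Hist2h2aa1 and Hist2h2aa2 missed the limit on p and Hist2h3c2 that on the fold. Hist2h2aa1 was called with either other scaling. All 50-base words of Hist2h2aa1 and Hist2h2aa2 recur in other annotated genes. Hist2h2aa1 overlaps RP24-201C14.5 on the other strand (0.428 to 3.18 CPM in the first kind). Hist2h2aa2 overlaps RP24-201C14.4 on the same strand (0.274 to 5.67 CPM). Reads of these could be split, so the rises are not firmly those of single genes.

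Over all members tested, 36 of 65 were lower in both treated libraries than in both NMuMG libraries, against 49.5% of all genes. The members that were not visible summed to 11.8 and 13.6 CPM in NMuMG and to 11.1 CPM in each treated library. A member under 1 CPM in both groups cannot reach the fold limit on this scale, so such members could not have been called. The S phase genes gave 15 calls of 24, all lower, with a median log2 fold change of -1.13 against -0.08 over all genes. Slbp, which binds the stem-loop, fell from 20.9 and 20.7 CPM to 9.80 and 9.53 CPM (log2 fold change -1.03, adjusted p = 4.9e-08), and Zfp473, of the U7 processing complex, was also called lower. Of the chaperones 5 were called lower (Asf1b, Chaf1a, Nasp, Hat1 and Chaf1b), and of the replication-independent histones 3 (H1f0, Cenpa and H2afz). H1f0 fell from 721 and 726 CPM to 178 and 182 CPM. The histone members' median log2 fold change was -0.08, the same as over all genes, on a scale that holds members under 1 CPM near 0. It depended on the pseudocount. At 0.1 it was -0.35, against -0.13 over all genes, and at 0.5 it was -0.15, against -0.095. Their sum was 122 and 123 CPM in NMuMG and 134 and 136 CPM after TGFβ. Within it H2A, which holds Hist3h2a, rose from 18.8 and 20.7 CPM to 54.98 and 56.1 CPM. H2B, which holds Hist2h2be, fell from 50.97 and 49.0 CPM to 24.3 and 26.5 CPM. The sums of H1 and H3 were higher in both treated libraries, and that of H4 was lower. The sum over all members thus did not fall in these libraries, where most members were under 1 CPM, while those of H2B, H4 and the members not visible did. In bulk RNA, the share of cells in S phase and the level of an mRNA per cell cannot be told apart.

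M1P versus E1KD compares the primary tumor line with the line that was injected. Hist1h1c rose from 13.03 and 12.6 CPM to 45.5 and 42.2 CPM (log2 fold change 1.70, SE 0.12, adjusted p = 1.0e-07), which is a level close to that of NMuMG. Hist1h2bc rose from 6.40 and 6.38 CPM to 13.7 and 14.4 CPM (log2 fold change 1.02, SE 0.15, adjusted p = 8.3e-05). It lay at the fold limit, and was not called without M1P replicate 2 (0.99) or with only the 2 groups in the fit. These 2 of 65 members were the ones called higher, against 1.16% of all genes, and of all calls 32.2% were higher (50.8% and 49.0% with the other scalings, 9.35% without E1KD replicate 2 and 48.6% without E1KD replicate 1). Hist2h2be was at 8.15 and 7.71 CPM (log2 fold change 0.30, adjusted p = 0.0080). Hist1h4i had 3.56 and 3.70 CPM, under both E1KD libraries (log2 fold change -0.70, adjusted p = 0.023). Of the S phase genes, processing genes, chaperones and replication-independent histones 0 were called.

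L1P versus M1P, the metastatic step, called 0 of 65 members in limma, against 1.21% of all genes in either direction, with 6 members at an unadjusted p under 0.05. Of the 12 visible members, 10 had both L1P libraries under both M1P libraries, against 30.5% of all genes, and those of Hist1h1d and Hist2h2aa1 overlapped. Hist1h1c had 27.3 and 28.4 CPM in L1P (log2 fold change -0.63, adjusted p = 0.0023) and Hist2h2be 4.24 and 4.56 CPM (log2 fold change -0.73, adjusted p = 2.0e-05), the lowest values of Hist2h2be in any library. Hist1h2bc had 9.65 and 9.61 CPM (log2 fold change -0.50, adjusted p = 0.029). These 3 differences were below the fold limit. Of the histone and S phase lists, 1 chaperone, Ipo4, which imports histones, was called higher.

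**Figure D3:**
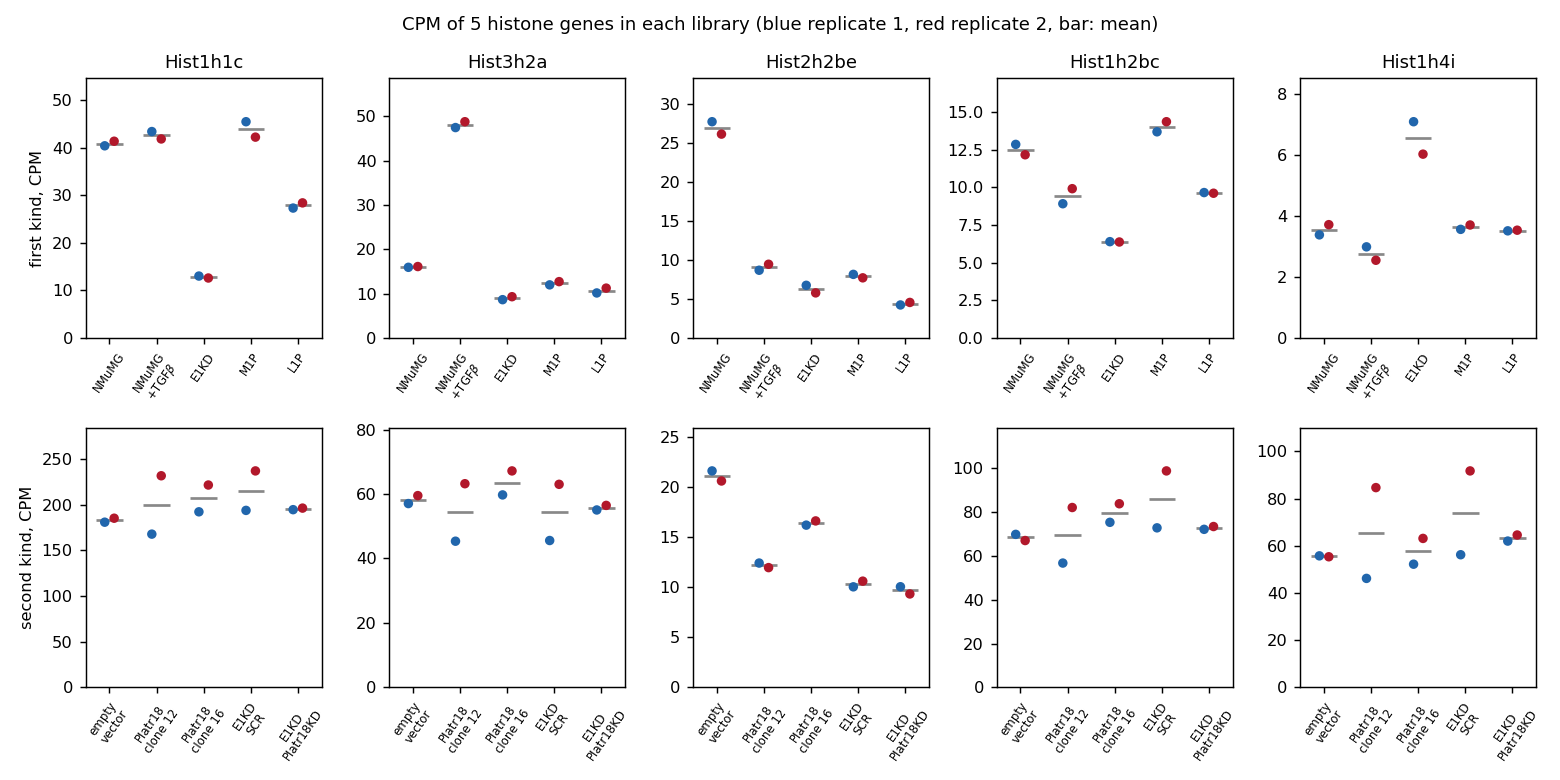
CPM of the 5 most visible members in each library, with the first kind above and the second kind below, replicate 1 in blue, replicate 2 in red and the mean of the 2 as a bar. The vertical axes start at 0 and differ between panels. Hist1h1c is lowest in E1KD among the first kind, Hist3h2a is high after TGFβ, and Hist2h2be is highest in NMuMG and, in the second kind, in empty vector cells.

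In the second kind the duplicates of some groups differed across the histone genes as a whole. The members summed to 3693 and 3719 CPM in empty vector cells and to 4764 and 4704 CPM in E1KD Platr18KD. They summed to 3319 and 4923 CPM in clone 12, to 3511 and 4174 CPM in clone 16 and to 4554 and 6206 CPM in E1KD SCR, each time with replicate 2 higher. As a median log2 ratio of replicate 2 to 1 over the members, this was 0.73, 0.32 and 0.60, against 0.01 in empty vector cells and -0.02 in E1KD Platr18KD. Over all genes it was at most 0.03 in size in the same pairs.

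The ratio differed by family, and in all 3 pairs it was lowest in H1. In clone 12 its median was 0.28 in H1, 0.49 in H2B, 0.73 in H3, 0.92 in H4 and 1.07 in H2A, and in E1KD SCR it was 0.21, 0.43, 0.63, 0.70 and 0.88 in the same order. The other protein-coding genes under 1000 exonic bases had 0.09 in clone 12, 0.03 in E1KD SCR and 0.01 in clone 16. Of the tail-free RNAs, Rpph1 and both rows of Rmrp were higher in replicate 2 in all 3 pairs. Rpph1 had 1326 and 2208 CPM in clone 12, 2205 and 2851 CPM in clone 16, 1862 and 2802 CPM in E1KD SCR, and 2151 and 2053 CPM in empty vector cells. Rn7sk did not follow in clone 16, with 6615 and 6461 CPM. It had 8691 and 10097 CPM in clone 12 and 7777 and 8830 CPM in E1KD SCR, but also 8876 and 9564 CPM in empty vector cells. What sets these duplicates apart was not tested, and it makes the spread of the members wide in the comparisons that follow.

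**Figure D4:**
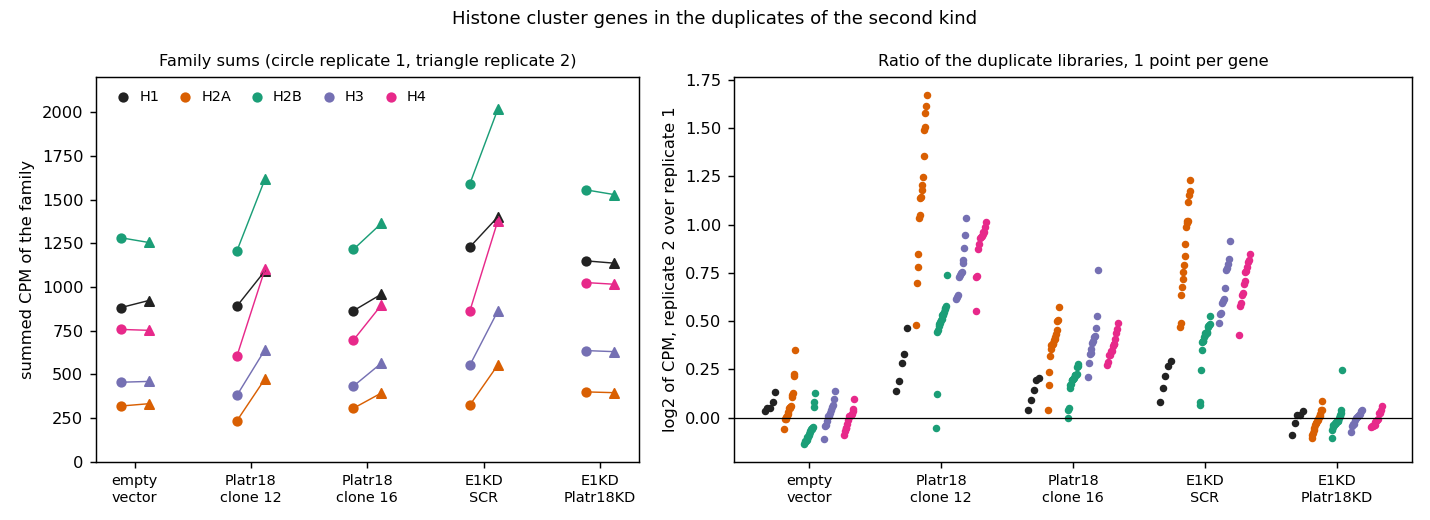
Left, summed CPM of each histone family in the libraries of the second kind (circle, replicate 1; triangle, replicate 2). Right, log2 ratio of replicate 2 to replicate 1 for each member with at least 1 CPM in both, by family in the order H1, H2A, H2B, H3 and H4. In clone 12, clone 16 and E1KD SCR nearly all points lie above 0, with H2A highest in clone 12 and E1KD SCR, whereas they lie about 0 in empty vector cells and E1KD Platr18KD.

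E1KD SCR versus empty vector is the silencing of hnRNP E1 in the second kind. The 2 groups also differ in the further construct, a scrambled shRNA against an empty vector. Silencing and construct cannot be told apart here. Hist1h1a, the linker histone H1.1, rose from 136 and 149 CPM to 341 and 361 CPM (log2 fold change 1.298, SE 0.086, adjusted p = 1.9e-08). It was the 1 member of 65 called higher, against 2.91% of all genes. Its duplicates were close in each group of the second kind, and its level in E1KD Platr18KD, 293 and 287 CPM, was also above those of the 3 groups without the hnRNP E1 shRNA (136 to 158 CPM).

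Below the fold limit, most members leaned the same way. Both E1KD SCR libraries were above both empty vector libraries in 51 of 65 members, against 41.7% of all genes, and the members' median log2 fold change was 0.48, against 0.02 over all genes. This value rests on the E1KD SCR duplicates, as it was 0.20 without replicate 2 and 0.81 without replicate 1. By family the medians were 0.36 in H1, 0.40 in H2A, 0.49 in H2B, 0.54 in H3 and 0.52 in H4.

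Hist2h2be was again lower in silenced cells, at 10.04 and 10.6 CPM against 21.6 and 20.6 CPM, and its log2 fold change of -0.97 (SE 0.081, adjusted p = 2.5e-07) was just under the limit, which it passed without E1KD SCR replicate 2 (-1.0023). Hist1h1c, at 194 and 237 CPM against 181 and 185 CPM, gave 0.23 (adjusted p = 0.16). Of the S phase genes Ccne1 and Mcm5 were called higher. Ccne1 had 12.01 and 12.6 CPM with the empty vector and 33.3 and 33.0 CPM in E1KD SCR. Among the mesenchymal markers Fn1 was called higher, and Vim and Cdh2 were not called. Of the processing genes Cstf2t was called lower, and of the chaperones and the replication-independent histones 0 were called.

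The difference between the 2 effects of silencing was tested as an interaction, E1KD SCR versus empty vector minus E1KD versus NMuMG. It was called higher for 3 of 65 members, against 0.947% of all genes, and lower for 0. Of these, 2 were visible in the first kind, Hist1h1c (1.83, SE 0.17, adjusted p = 3.6e-06) and Hist1h2bc (1.18, SE 0.21, adjusted p = 0.00093). For Hist1h1c and Hist1h2bc the lower levels of E1KD in the first kind had no counterpart in the second, where their levels were 7.42-fold and 8.17-fold higher. The other was Hist1h1a (1.18), which entered the test only through the second kind. Its 0.151 to 0.394 CPM in the first kind hold any change near 0 on this scale, so its value restates the change in the second kind and is not read as a difference between the kinds. The call of Hist1h2bc was lost without E1KD SCR replicate 2 (0.96). Hist2h2be, with lower values in both, differed by 0.98 (adjusted p = 2.6e-05), just under the limit, and passed it without replicate 1 of E1KD, E1KD SCR or empty vector or replicate 2 of NMuMG (1.01 to 1.07). Of all calls 26.96% were higher, and 42.7% and 44.1% with the other scalings, under which 6 and 7 members were called. This share was 8.94% without E1KD replicate 2 and 40.3% without E1KD replicate 1. The mesenchymal markers Fn1, Vim and Cdh2 were called lower in the interaction. The construct that differs between E1KD SCR and empty vector cells enters the interaction as well.

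Platr18 overexpression, clones 12 and 16 versus empty vector, called 0 of 65 members in limma, against 1.46% of all genes, and 1 member had an unadjusted p under 0.05. That member was Hist2h2be, with 12.4 and 11.96 CPM in clone 12 and 16.2 and 16.6 CPM in clone 16 against 21.6 and 20.6 CPM with the empty vector (log2 fold change -0.55, adjusted p = 4.6e-05). All 4 libraries of the clones were under both of the control. The members' median was 0.10, and by family it lay between 0.06 and 0.11. The lists of histone, processing, chaperone and S phase genes gave 0 calls.

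Clone 16 versus clone 12 also called 0 of 65 members in limma, against 4.38% of all genes, with 3 members at an unadjusted p under 0.05. The largest of these was in Hist1h1b, an H1 gene, which had 137 and 156 CPM in clone 12 and 100.35 and 103 CPM in clone 16 (log2 fold change -0.52, adjusted p = 0.00083). Hist2h2bb was also lower in clone 16 (-0.36, adjusted p = 0.042), and Hist2h2be was higher there (0.40, adjusted p = 0.0011). The median over the members was -0.03.

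Platr18 silencing in E1KD cells, E1KD Platr18KD versus E1KD SCR, called 0 of 65 members in limma, against 1.48% of all genes, with 3 members at an unadjusted p under 0.05. The largest was in Hist3h2ba, an H2B gene, with 1.44 and 1.70 CPM in E1KD SCR and 2.24 and 2.66 CPM in E1KD Platr18KD (log2 fold change 0.42, adjusted p = 0.0087). Hist1h1a gave -0.27 (adjusted p = 0.038), with both E1KD Platr18KD libraries under both of E1KD SCR, and Hist2h2be gave -0.08 (adjusted p = 0.57). The members' median was -0.13, with the E1KD SCR duplicates as far apart as described above. Cstf2t, a cleavage stimulation factor subunit, was the one processing gene called, from 19.6 and 20.5 CPM to 4.32 and 4.69 CPM, and the other lists of histone and S phase genes gave 0 calls.

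**Figure D5:**
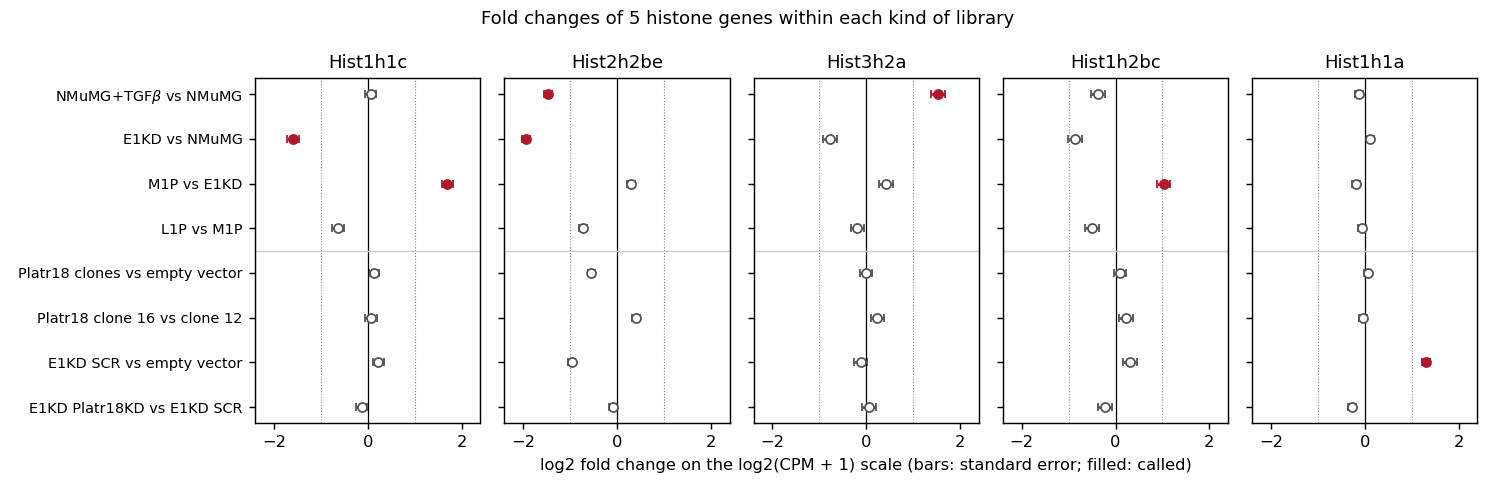
Log2 fold changes on the log2(CPM + 1) scale (x axis), with the standard error as a bar, of the 5 members called within a kind of library, for the 4 comparisons of the first kind (above the grey line) and the 4 of the second. Filled points were called and dotted lines mark the fold limit of 1. Hist2h2be lies left of 0 in both comparisons of hnRNP E1 silencing, while Hist1h1c and Hist1h2bc do so in the first kind only.

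The levels of Hist2h2be ordered the groups in both kinds of library. In the first kind it went from 26.1 to 27.7 CPM in NMuMG down to 4.24 to 4.56 CPM in L1P, and NMuMG+TGFβ (8.68 and 9.45), M1P (8.15 and 7.71) and E1KD (6.75 and 5.78) lay between them without overlap. In the second kind empty vector cells were highest, followed by clone 16, clone 12, E1KD SCR and E1KD Platr18KD, of which the last pair overlapped. Its duplicates differed by at most 0.22 in log2 CPM in any group, also in those where the other members differed.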

How the data were processed

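The submitters' notes name Bowtie2 2.2.5 and GRCm38.p6, and the methods of the study name the M18 mouse annotation and quantification by expectation-maximization in Partek. The library preparation that separates the 2 kinds is not given in the sources used here. The authors deposited 1 table of CPM (counts per 1e6 reads) for 54986 genes in 20 libraries, with 0.0001 added to each value, and counts were not recovered from it. The test used limma 3.58.1 (R 4.3.3; lmFit, eBayes with a trend) on log2(CPM + 1), with 10 group means and 10 residual degrees of freedom, over the 17106 genes for which 2 or more libraries reached 1 CPM. Fold changes on this scale understate those of low genes. A call needed an unadjusted p under 0.001 and a log2 fold change of 1 or more in size, and adjusted p-values (Benjamini-Hochberg) cover all genes tested. Reads worth and floors of 3 reads come from the step between low values and cover counting error only.

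The members and gene lists were chosen with earlier results of these data known. Members were named if visible in the first kind, among the 3 highest of their family in the second kind, or called. Hist1h1b, Hist1h1t, Hist1h2aa, Hist1h2ab, Hist1h2ba, Hist1h2bl, Hist2h2aa2, Hist2h4 and Hist3h2ba were named after their values were seen. Replicate numbers come from the titles. Stem-loops, lengths and shared 50-base words were taken from GENCODE M21 transcripts (GRCm38), promoters from RefSeq (GRCm38.p6). The fit was tested on simulated data. Tables used Python 3.11.15 with numpy 2.4.6 and pandas 2.3.3, figures matplotlib 3.10.9. Alternatives were other pseudocounts (0.1 and 0.5), filters, scalings and thresholds, the compared groups alone, the replicate block and leaving out each replicate.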

Additional observations from a re-analysis of the deposited data

Results flagged for a closer look

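The interaction test in limma, of the effect of hnRNP E1 silencing in the second minus the first kind of library, was past its limits in 3 members, of which 2 were visible in the first kind. Hist1h1c differed by a log2 of 1.83, with values near 41 CPM in NMuMG and 13 CPM in E1KD but 181 to 185 CPM with the empty vector and 194 to 237 CPM in E1KD SCR. Hist1h2bc differed by 1.18, which was 0.96 and no longer called without E1KD SCR replicate 2. Hist1h1a differed by 1.18, with at most 0.394 CPM in the 4 libraries of the first kind and a rise from 142 to 351 CPM in the means of the second. It entered the test only through the second kind, so this value restates that rise and is no evidence of a difference. With a pseudocount of 0.1 the difference of Hist1h1a was 0.88 and was not called. The kind of library goes with the vector and the selection, so these cannot be told apart.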

How the results depend on the processing

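The number of members called moved with the pseudocount. At 0.1 it was 4 in E1KD versus NMuMG, 8 after TGFβ, 3 in E1KD SCR versus empty vector, 1 (Hist2h4) in L1P versus M1P and 7 in the interaction, and at 0.5 it was 5 after TGFβ and 5 in the interaction. With an adjusted p under 0.05 and the same fold limit 4 were called after TGFβ, the added ones being Hist2h2aa1 and Hist2h2aa2. The interaction gave 6 with median-of-ratios scaling and 7 with equal sums over protein-coding genes. When the fit held the 2 groups compared and no others, M1P versus E1KD gave 1.

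Leaving out 1 replicate gave 2 to 8 members in the interaction (2 without E1KD SCR replicate 2, 7 without E1KD SCR replicate 1 and 8 without E1KD replicate 1), 1 or 2 in E1KD SCR versus empty vector (2 without either E1KD SCR library), and 1 or 2 in M1P versus E1KD (1 without M1P replicate 2). The kind comparison called 58 members among genes with a mean of at least 5 CPM and 64 under the other settings, and the fold of the sum between kinds ran from 42.7 to 54.4. A limit of 2 CPM left 5 visible members.

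The correlation of same-numbered deviations over all genes ran from -0.12 to 0.29, and the replicate numbers were not taken as pairs in the main fit. Over the members it ran from -0.11 to 0.69, the highest being that of clone 16 with clone 12. Replicate 2 was the higher in 98.4% of the members in each clone and in 100% in E1KD SCR, among those with a mean of at least 5 CPM. Whether the number marks a source that these groups share was not tested. With the replicate block 3 members were called after TGFβ (Hist2h2aa1 added), and the counts of the other comparisons were those of the fit without it. Crossing the numbers of the clone 16 libraries, a setting chosen after seeing the data, left 0 members called. Of the 43 values of named members recomputed under the alternatives, 1 changed sign: Hist1h1c after TGFβ, from 0.06 to -0.012 with equal sums over protein-coding genes.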
